A study of Mus musculus with 2 samples.

Results

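The genes described here encode the proteins that choose splice sites, namely the SR proteins, the heterogeneous nuclear ribonucleoproteins (hnRNPs) and the SF3 complexes with their closest partners and kinases. Members were taken by gene symbol: Srsf genes, hnRNP genes, Sf3a and Sf3b subunits, Sf1, U2af1, U2af2, Tra2a, Tra2b, Srrm1, Srrm2, Clk1 to Clk4, Ptbp1 to Ptbp3, Srpk1 and Srpk2. The rule found 55 of the 16803 genes in the deposited table. RNA was sequenced on a BGISEQ-500 from cells of NE4C, an established line of mouse neural stem cells, in 2 libraries. NE4C cells were grown in Eagle MEM on plates coated with poly-L-lysine, and the control came from a normal culture. The other library came from cells treated with homocysteine thiolactone, or HTL, a cyclic thioester of homocysteine that reacts with lysine residues of proteins. For its assays of protein modification the paper starved cells of serum before adding HTL. Whether this was done for either library is not stated. The dose and duration of the treatment behind this library are not given in the sources used here. With 1 line and 1 library per condition there was no replicate check, so every test below compares these 2 libraries and not the conditions, and every interval covers counting error only.

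Introns are removed by the spliceosome, which assembles on the 5′ splice site, the branch point and the 3′ splice site. SF1 and the U2AF heterodimer mark the branch point, the polypyrimidine tract and the 3′ splice site, and are followed by the U2 snRNP with its SF3a and SF3b complexes. SR proteins bind mostly exonic enhancers and help this assembly, whereas many hnRNPs bind silencers and oppose it, so that the balance between both families sets which exons are included. The activity and location of SR proteins are set by phosphorylation of their arginine-serine domains, which SRPK kinases do mainly in the cytoplasm and CLK kinases in the nucleus. Several of these genes control their own level through retained introns or poison exons that stop the message from being translated. In the nervous system PTBP1 is known for holding back neuronal exons in progenitor cells, and PTBP2 takes over part of that role as neurons form.

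Promoters were available for 48 of the 55 members, and are shown for the members called at 2-fold that have a single start, because these are the genes that differed most between the libraries. The 200 bases before each start are written 5′ to 3′ on the strand of the gene, from RefSeq on GRCm38.p6. Capitals mark matches on either strand to TGACGTCA or its first 5 letters TGACG (cAMP response element), CCAAT and GGGCGG (GC box), where overlapping matches run together. Clk4 lies at chr11:51262914-51263113 on the plus strand, Srsf7 at chr17:80207306-80207505 on the minus strand, Ptbp2 at chr3:119783389-119783588 on the minus strand, and Hnrnph2 at chrX:134600979-134601178 on the plus strand.
Clk4: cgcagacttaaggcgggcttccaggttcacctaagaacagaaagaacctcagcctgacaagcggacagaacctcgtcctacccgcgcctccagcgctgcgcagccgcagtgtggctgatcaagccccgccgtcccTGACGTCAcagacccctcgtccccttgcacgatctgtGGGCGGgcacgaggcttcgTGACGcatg
Srsf7: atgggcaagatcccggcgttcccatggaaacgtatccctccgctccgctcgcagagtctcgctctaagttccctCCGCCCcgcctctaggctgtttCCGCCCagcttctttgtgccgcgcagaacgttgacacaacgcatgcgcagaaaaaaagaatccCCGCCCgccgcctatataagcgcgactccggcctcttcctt
Ptbp2: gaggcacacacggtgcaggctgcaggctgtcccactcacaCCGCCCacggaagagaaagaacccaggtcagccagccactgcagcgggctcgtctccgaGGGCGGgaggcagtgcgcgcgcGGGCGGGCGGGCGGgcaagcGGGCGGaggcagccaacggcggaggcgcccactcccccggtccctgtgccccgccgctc
Hnrnph2: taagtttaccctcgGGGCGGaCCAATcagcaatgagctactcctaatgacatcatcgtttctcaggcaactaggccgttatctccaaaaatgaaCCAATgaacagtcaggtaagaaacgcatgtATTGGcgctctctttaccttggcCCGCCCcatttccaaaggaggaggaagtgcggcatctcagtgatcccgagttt
The Clk4 window holds 1 TGACGTCA, 3 matches to TGACG (of which that element contains a pair) and 1 GC box. The Srsf7 window holds 3 GC boxes and the Ptbp2 window 6, and neither holds any of the other motifs searched. In the Hnrnph2 window there are 3 CCAAT boxes and 2 GC boxes. Srpk2, the remaining member called at 2-fold, has 3 annotated starts and is not shown. Over all 65 member promoters, TGACG was found in 41.5% against 15.7% of all 32851 promoters of the same length, and GGGCGG in 67.7% against 31%. CCAAT was found in 43.1% against 29.3%, TGACGTCA in 3.08% against 1.47% and the E-box CACGTG in 7.69% against 5.26%. These are matches of letters, given as a description. The background promoters were not limited to genes expressed here or matched to the members for level.

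The control library held 10350665 estimated reads and the HTL treatment library 9102076. A gene at 0 reads could have up to 3, which is 0.29 CPM (control) or 0.33 CPM (HTL treatment). The labelled cell type was checked against marker genes, and 9 of 10 neural stem cell markers reached 1 FPKM in the control library and 8 of 10 in the HTL treatment library, with Fabp7 at 2 reads in both. Their summed level was 229 FPKM in the control and 157 FPKM in the HTL treatment library, with log2 fold changes from -1.78 for Sox1, -1.46 for Sox2, -1.22 for Sox3 and -1.01 for Vim, through -0.37 for Cdh2, -0.06 for Nes, 0.03 for Msi1 and 0.12 for Pax6, to 0.51 for Prom1. Of 6 neuron markers, 3 reached 1 FPKM in each library, and their sum was 22 and 28.7 FPKM. Other lists of differentiated cells summed to between 0.72 and 15 FPKM in the control and between 1.24 and 14.9 FPKM in the HTL treatment library. The astrocyte list, of which 2 markers were in the table, went from 0.72 to 1.98 FPKM, with Gfap at 2 and 0 reads and Aldh1l1 at 21 and 56 reads. The pluripotency factor Pou5f1 was high in both, with 1870 and 2114 FPKM, whereas Nanog had 23.8 and 14.8 FPKM and Dppa5a 1 read in each library. The label neural stem cell would not place Pou5f1 at such a level, and whether near copies of the gene or its annotation bear on the value was not tested. The part of these marker levels in the results below was not tested, and in bulk RNA fewer cells of a type and less RNA per cell cannot be told apart.

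All 55 members passed the minimum of 10 reads over both libraries, as did 13442 genes of the table, so none was lost to the filter. The members were abundant. Their median level was 100.1 FPKM (fragments per kilobase of transcript, scaled to library size) in the control library and 100.9 FPKM in the HTL treatment library, against 7.13 and 6.14 FPKM for all genes tested. In the control library 29 of the 55 were above 100 FPKM, or 52.7%, compared with 4.15% of all genes in the table. Hnrnpab had the highest level, 593 FPKM in the control and 549.8 FPKM in the HTL treatment library, and Ptbp3 the lowest, 5.04 and 5.22 FPKM. Together the members took 2.315% of the control reads (95% Clopper-Pearson interval 2.306 to 2.325) and 2.127% of the HTL treatment reads (2.118 to 2.137). The log2 fold change of these shares was -0.12 (-0.13 to -0.11), and without Hnrnpu, the member with most reads, it was -0.08. On the same scaling to total reads the median of all genes tested was -0.14. The members together thus did not fall more than the median gene.

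**Figure D1:**
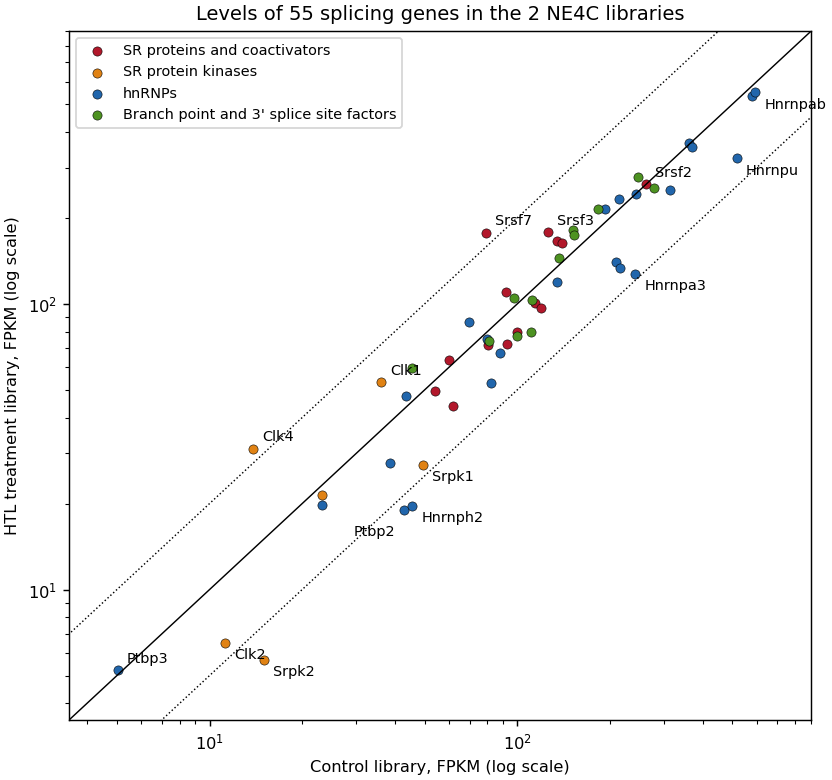
Level of each of the 55 members in the control library (horizontal, FPKM, log scale) and the HTL treatment library (vertical, FPKM, log scale), 1 point per gene, coloured by role. The solid line marks equal levels and the dotted lines a 2-fold difference; Clk4 and Srsf7 lie above the upper dotted line, Srpk2, Ptbp2 and Hnrnph2 below the lower one, and most members are between 50 and 600 FPKM close to the solid line.

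At 2-fold, and with 0.001 as the limit on the adjusted p of the two-sided exact binomial test, 2 members were higher in the HTL treatment library (Clk4 and Srsf7) and 3 were lower (Srpk2, Hnrnph2 and Ptbp2). The background was 2.81% of all genes tested for higher calls and 7.98% for lower calls. With the fold lowered to a log2 fold change of 0.5, 3 members were higher and 11 lower, or 5.45% and 20% of the members, against 8.9% and 18.2% of all genes tested. These shares were close to the background, so the number of calls is no result about the members as a set. Under TMM scaling the split was 5 higher and 9 lower, under the median of ratios 5 and 8, and under the upper quartile 4 and 9. Over all genes tested the split moved likewise, from 1197 higher and 2441 lower to 1760 and 1857 under TMM, 1798 and 1829 under the median of ratios, and 1559 and 2017 under the upper quartile. The median log2 fold change, the log2 of the HTL treatment over the control level, was -0.11 for the members and -0.14 for all genes tested, and these 3 scalings raised every log2 fold change by 0.13, 0.14 and 0.09. Relative to the median gene, 32 members were above and 23 below. Counting error was small at this depth: the 95% interval left out 0 for 46 members, although 41 of the 55 stayed within 0.5 of 0 on the log2 scale. Spread between cultures could not be measured, so a coefficient of variation between cultures was assumed: with 0.1, the exact test of edgeR left 7 members past the lower fold (2 higher, 5 lower), and with 0.2 or 0.4 it left 0 past either fold.

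By role, the medians lay on either side of the median gene. SR proteins and their coactivators (14 genes) had a median log2 fold change of -0.06, or 0.08 above the median gene, the SR protein kinases (6 genes) -0.45, or 0.31 below it (-0.31), the hnRNPs (23 genes) -0.17, or -0.03 relative to it, and the branch point and 3′ splice site factors (12 genes) 0.08, or 0.22 above it. At the lower fold, where 8.9% of all genes tested were higher and 18.2% lower, 2 SR proteins were called higher (14.3%) and 1 lower (7.14%). Of the kinases 1 was higher (16.7%) and 3 were lower (50%), and of the hnRNPs 0 were higher and 7 lower (30.4%). Of the branch point factors 0 were called. The roles hold few genes, and differences between these shares were not tested. As shares of all reads, the hnRNPs went from 1.323% to 1.114%, a log2 fold change of -0.25 (-0.26 to -0.24), and -0.19 without Hnrnpu. SR proteins and coactivators together went from 0.4705% to 0.4879%, a log2 fold change of 0.05 (0.03 to 0.07). Without Srsf7 the shares were 0.4508% and 0.4453%. The value was then -0.0176 (-0.0369 to 0.0016), near 0 but above the median gene. Branch point factors took 0.4813% and 0.4917%. The kinases took 0.04079% and 0.03385%, a log2 fold change of -0.27 (-0.34 to -0.20). All these shares are of total reads, and on that scaling the median gene was at -0.14. TMM, the median of ratios and the upper quartile would raise each value by 0.13, 0.14 and 0.09.

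**Figure D2:**
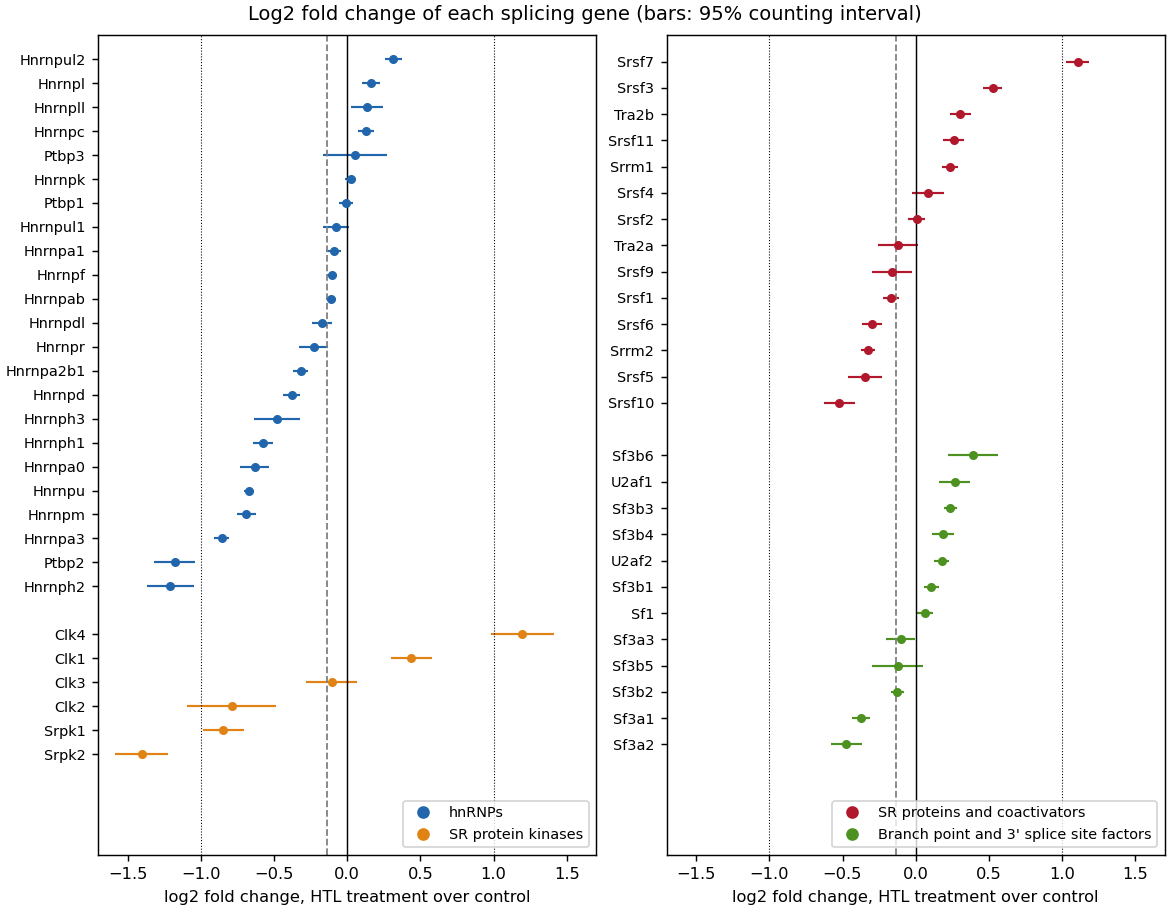
log2 fold change of HTL treatment over control for each member, sorted within its role, with bars for the 95% counting interval. The solid line marks 0, the dashed line the median of all genes tested (-0.14) and the dotted lines a 2-fold difference; the kinases spread from -1.40 for Srpk2 to 1.19 for Clk4, and the branch point and 3′ splice site factors stay between -0.47 and 0.39.

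The kinases of SR proteins held calls in both directions. Clk4 (gene ID 12750; NCBIM37 chromosome 11, 51075232 to 51095268, plus strand), a nuclear kinase, had 274 reads (13.9 FPKM) in the control library and 552 reads (31.1 FPKM) in the HTL treatment library. Its log2 fold change was 1.19, a 2.29-fold higher level (95% interval 1.98 to 2.66), with an adjusted p of 7.04e-30 in the exact binomial test. Clk1, its closest relative in this family, had 792 and 943 reads (36 and 53.4 FPKM), a log2 fold change of 0.44 (0.30 to 0.58). Clk1 missed the lower fold, which it passed under TMM (0.57), the median of ratios (0.57) and the upper quartile (0.53). Clk3 had 600 reads in the control and 490 in the HTL treatment library, and its log2 fold change of -0.11 (-0.28 to 0.07) did not differ from 0 beyond counting error. Clk2 had 271 and 138 reads, a log2 fold change of -0.79 (-1.09 to -0.49), and was called lower. Reads of Clk2 may be shared with the read-through gene Clk2-scamp3, and with both summed the log2 fold change was -0.90 (-1.13 to -0.68).

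Both SRPK kinases were called lower. Srpk2 (gene ID 20817; NCBIM37 chromosome 5, 23009174 to 23182266, minus strand) had 1015 reads (15.1 FPKM) in the control and 337 reads (5.67 FPKM) in the HTL treatment library. The difference was 2.65-fold, a log2 fold change of -1.40 (-1.59 to -1.23) with an adjusted p of 5.07e-60 in the exact binomial test, and it was the largest fall among the members. Exons of Srpk2 overlap those of Mll5 on the opposite strand, and the sources do not say if strand was used in counting. Srpk1 had 1270 and 621 reads (49.3 and 27.3 FPKM), a log2 fold change of -0.85 (-0.99 to -0.71). The library scaling cancels in a difference between 2 members, which was 0.56 (0.33 to 0.79) for Srpk1 over Srpk2, 0.76 (0.50 to 1.01) for Clk4 over Clk1 and 0.68 (0.33 to 1.04) for Clk3 over Clk2. All 3 intervals lay above 0, so related kinases moved by unequal amounts between these libraries.

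Among the SR proteins, Srsf7 stood out. Srsf7 (gene ID 225027; NCBIM37 chromosome 17, 80599429 to 80606629, minus strand), an SR protein with a zinc knuckle, had 2047 reads (79.2 FPKM) in the control library and 3876 reads (177 FPKM) in the HTL treatment library. This was 2.15-fold higher, a log2 fold change of 1.11 (1.03 to 1.18) with an adjusted p of 3.81e-181 in the exact binomial test. Srsf3, the nearest relative of Srsf7 and like it an adaptor for mRNA export, had 3492 and 4421 reads (126 and 178 FPKM), a log2 fold change of 0.53 (0.46 to 0.59), and was called at the lower fold. The level of Srsf7 was thus below that of Srsf3 in the control library and beside it in the HTL treatment library. The difference between the pair was 0.58 (0.48 to 0.68).

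The other SR genes stayed under the lower fold except Srsf10. Tra2b, an SR-like activator of exons, had 2978 and 3236 reads, a log2 fold change of 0.31 (0.23 to 0.38), and Tra2a 1024 and 828 reads, a log2 fold change of -0.12 (-0.26 to 0.01). The difference between them was 0.43 (0.27 to 0.58). Srrm1 and Srrm2, large coactivators without an RNA recognition motif, lay on opposite sides of 0. Srrm1 had 5426 and 5605 reads, a log2 fold change of 0.23 (0.18 to 0.29), and Srrm2 9045 and 6347 reads, a log2 fold change of -0.33 (-0.37 to -0.28). Srsf2, which marks nuclear speckles and was the most abundant SR gene, had nearly the same level in both, with 262 FPKM in the control and 263 FPKM in the HTL treatment library and a log2 fold change of 0.01 (-0.05 to 0.07). Srsf1, the first SR protein described, had 6415 and 5010 reads, a log2 fold change of -0.17 (-0.22 to -0.12), and its relative Srsf9 954 and 750 reads, a log2 fold change of -0.16 (-0.30 to -0.02). The difference between Srsf9 and Srsf1 was 0.01 with an interval of -0.14 to 0.16, which bounds but does not exclude a small one.

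Srsf4 had 1399 and 1305 reads, a log2 fold change of 0.09 (-0.02 to 0.19). Srsf6, a related SR protein, had 4422 and 3164 reads, a log2 fold change of -0.30 (-0.36 to -0.23). This further pair differed by 0.38 (0.25 to 0.51). Srsf11 had 2952 and 3108 reads, a log2 fold change of 0.26 (0.19 to 0.33), and Srsf5 1489 and 1032 reads, a log2 fold change of -0.34 (-0.46 to -0.23). Srsf10, an SR protein that represses splicing when it is dephosphorylated, was the lowest of the class, with 1913 and 1171 reads (62 and 43.8 FPKM). Its log2 fold change was -0.52 (-0.63 to -0.42), just past the lower fold, and was short of it under TMM (-0.39), the median of ratios (-0.39) and the upper quartile (-0.43).

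The hnRNPs held the most abundant members and most of the falls. Hnrnpu, a large protein that binds both RNA and scaffold attachment regions of DNA, had the most reads of any member, 19739 (516 FPKM) in the control and 10893 (323 FPKM) in the HTL treatment library. Its log2 fold change was -0.67 (-0.71 to -0.64), a 1.59-fold lower level. Hnrnpm, a binder of GU-rich RNA, had 5525 and 3011 reads, a log2 fold change of -0.69 (-0.75 to -0.63). Hnrnpa0 had 2283 and 1295 reads, a log2 fold change of -0.63 (-0.73 to -0.53), which remained called under TMM (-0.502) and the upper quartile (-0.539) and was just short under the median of ratios (-0.496). All 3 genes were called lower at the lower fold.

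The hnRNP A and B genes were not lower as one. Hnrnpa3 had 9358 and 4543 reads (242 and 127 FPKM), a log2 fold change of -0.86 (-0.91 to -0.81). Its reads are split with Gm6793, which has the same best protein match and 9290 and 5178 reads, and the sum of both had a log2 fold change of -0.75 (-0.79 to -0.72). Hnrnpa1, a repressor of exon inclusion, had 6744 and 5562 reads, a log2 fold change of -0.09 (-0.14 to -0.04), and Hnrnpa2b1 7337 and 5181 reads, a log2 fold change of -0.32 (-0.37 to -0.27). The difference of 0.22 (0.15 to 0.30) between this pair rests on how reads were split, since Hnrnpa1 shares its best protein match with Gm10052, Gm5803 and Gm5643. With these summed, Hnrnpa1 had a log2 fold change of -0.28 (-0.31 to -0.24) and the difference was 0.04 (-0.02 to 0.10). Hnrnpab, with the highest level of the members, had 15102 and 12283 reads, a log2 fold change of -0.11 (-0.15 to -0.08), close to the median gene. Hnrnpd, a binder of AU-rich elements, had 6205 and 4195 reads, a log2 fold change of -0.38 (-0.44 to -0.32), and Hnrnpdl 3854 and 3010 reads, a log2 fold change of -0.17 (-0.24 to -0.10), a difference of 0.21 (0.12 to 0.30).

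Within the hnRNP H and F genes, whose proteins bind runs of G, Hnrnph1 and Hnrnph2 were called lower, and Hnrnph3 and Hnrnpf were not called. Hnrnph2 (gene ID 56258; NCBIM37 chromosome X, 131135718 to 131141599, plus strand) had 1160 reads (45.6 FPKM) in the control and 441 reads (19.6 FPKM) in the HTL treatment library. It was 2.31-fold lower, with a log2 fold change of -1.21 (-1.37 to -1.05) and an adjusted p of 1.71e-54 in the exact binomial test. Hnrnph1, with 4868 and 2875 reads (209.5 and 140 FPKM), had a log2 fold change of -0.57 (-0.64 to -0.51), past the lower fold but short of it under TMM (-0.44), the median of ratios (-0.44) and the upper quartile (-0.48). Hnrnph1 and Hnrnph2 differed by 0.64 (0.46 to 0.81), and RSEM gave fractional reads to both, so part of their reads was shared with other genes. Hnrnph3 had 870 and 548 reads, a log2 fold change of -0.48 (-0.64 to -0.33), just short of the lower fold. Hnrnpf was the second most abundant member, with 578 and 536 FPKM, and its log2 fold change was -0.10 (-0.14 to -0.07).

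The polypyrimidine tract binding proteins gave the widest gap among the 16 pairs compared. Ptbp1 lay near 0, with 7770 reads (244 FPKM) in the control and 6785 reads (242 FPKM) in the HTL treatment library and a log2 fold change of -0.01 (-0.06 to 0.04). The other scalings put it above 0 beyond counting error, at 0.12 under TMM (adjusted p 2.22e-06 in the exact binomial test), 0.13 by median of ratios (5.7e-07) and 0.08 by upper quartile scaling (0.00136), all far short of the lower fold. Ptbp2 (gene ID 56195; NCBIM37 chromosome 3, 119421660 to 119486306, minus strand), the neural paralogue, had 1505 reads (43 FPKM) and 584 reads (18.9 FPKM). It was 2.27-fold lower, a log2 fold change of -1.18 (-1.32 to -1.04) with an adjusted p of 8.2e-68 in the exact binomial test. The difference between Ptbp1 and Ptbp2 was 1.17 (1.02 to 1.32), or 2.25-fold. Ptbp3 was low and its interval also held 0, with 363 and 331 reads and a log2 fold change of 0.05 (-0.17 to 0.27). Beside the fall of Ptbp2, the neuron markers had few reads apart from Tubb3, with 88 and 29 for Dcx, 35 and 15 for Snap25, 114 and 66 for Map2, 34 and 38 for Rbfox3, and 8 and 4 for Syp, so that the last 2 give no direction at this depth. Tubb3 had 296 and 396 reads. Their summed level was higher in the HTL treatment library through Tubb3, which had 16.3 and 24.8 FPKM, and their part in the fall of Ptbp2 was not tested.

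The remaining hnRNPs were within 0.5 of 0. Hnrnpul2 was the highest of the class, with 4181 and 4575 reads and a log2 fold change of 0.32 (0.25 to 0.38), and Hnrnpul1 had 2389 and 1991 reads, a log2 fold change of -0.08 (-0.16 to 0.01), which is a difference of 0.39 (0.29 to 0.50). Hnrnpl, a binder of CA repeats, had 4276 and 4208 reads, a log2 fold change of 0.16 (0.10 to 0.22), and its paralogue Hnrnpll 1377 and 1328 reads, a log2 fold change of 0.13 (0.02 to 0.24). Their difference of 0.03 had an interval of -0.10 to 0.16. Hnrnpc, which covers uridine tracts, had a log2 fold change of 0.13, Hnrnpk, which binds runs of C, 0.02, and Hnrnpr -0.23.

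No factor of the branch point and 3′ splice site was called. Of these 12 genes, 10 were above the median gene and 2 below it, with log2 fold changes from -0.47 to 0.39. Sf3b6, the small subunit that lies at the branch point adenosine, was the highest, with 525 and 606 reads and a log2 fold change of 0.39 (0.22 to 0.56). It passed the lower fold under TMM (0.52) and the median of ratios (0.53). U2af1, which reads the AG of the 3′ splice site, had 1387 and 1467 reads, a log2 fold change of 0.27 (0.16 to 0.37), and U2af2, which binds the polypyrimidine tract, 5616 and 5580 reads, a log2 fold change of 0.18 (0.12 to 0.23). As parts of a heterodimer they differed by 0.09, with an interval of -0.03 to 0.21. Sf3b3 had 8211 and 8496 reads, a log2 fold change of 0.23 (0.19 to 0.28), Sf3b4 had 0.19 and Sf1, the branch point binding protein, 0.06.

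Within the SF3 complexes the SF3b subunits were at or above the median gene and SF3a was split. Sf3b1, the subunit that holds the branch helix, had 6347 and 6005 reads, a log2 fold change of 0.11 (0.05 to 0.16). Sf3b2, the most abundant of the class in the control library at 278 FPKM, had 9420 and 7599 reads, a log2 fold change of -0.12 (-0.17 to -0.08), a difference of 0.23 (0.16 to 0.30) from Sf3b1. Sf3b5 had 609 and 492 reads, a log2 fold change of -0.12 (-0.30 to 0.05). The SF3a subunits Sf3a1 and Sf3a2 were the lowest of the class, with 5144 and 3488 reads and a log2 fold change of -0.38 (-0.44 to -0.31) for Sf3a1, and 1910 and 1209 reads and a log2 fold change of -0.47 (-0.58 to -0.37) for Sf3a2. Their partner Sf3a3 had 1965 and 1608 reads, a log2 fold change of -0.10 (-0.20 to -0.01).

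RSEM divides the reads of a gene between its transcripts, so reads and FPKM together give the mean length of the transcripts to which a library's reads were assigned. Where the deposited length was a whole number, the length worked back changed by at most 0.074% between the libraries over 30 members. The calculation was calibrated on genes of this kind, so this gives its precision and is no separate check. For the other 25 members the mean length changed by more than 1% in 8, or 32%, against 29.5% of 1854 genes of this kind in the table. Clk1 had the largest change, from 2123 bases in the control to 1941 bases in the HTL treatment library, which is -8.59% and lies at percentile 2.75 of those genes. Srsf7 went from 2490 to 2389 bases (-4.05%, percentile 6.47). Hnrnpa3 went the other way, from 3715 to 3886 bases (4.61%, percentile 97.9), with the limit that its reads are split with a near copy. Smaller changes were seen in Sf1 (-1.98%), Hnrnpa1 (-1.72%), Srsf10 (-1.62%), Srsf3 (1.27%) and Clk4 (1.76%). These values show that reads were assigned to a different mix of transcripts, not which transcripts, and they have no error estimate.

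**Figure D3:**
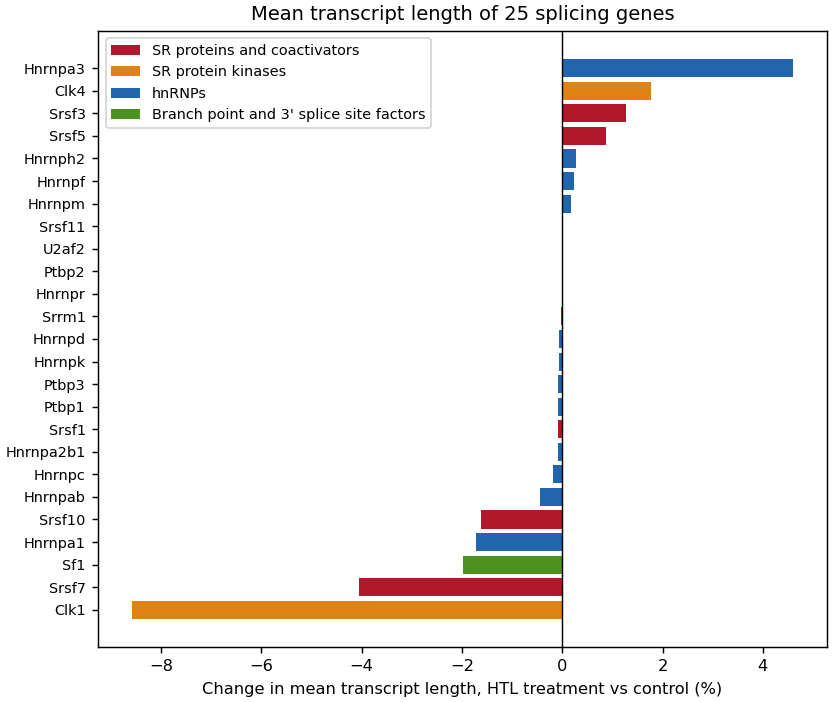
Change in mean transcript length between the libraries, in percent of the control value, for the 25 members whose deposited length was not a whole number, coloured by role. Clk1 (-8.59%) and Srsf7 (-4.05%) were shorter in the HTL treatment library, Hnrnpa3 (4.61%) was longer, and 17 of the 25 bars stay within 1% of 0.

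Many of these genes are annotated with transcripts that are not expected to give protein. In the gencode annotation of NCBIM37, 51 of the 55 members were found by symbol. Of these, 22 (43.1%) have a transcript classed as retained intron, compared with 23% of 22380 protein-coding genes, and 17 (33.3%) have one classed as nonsense-mediated decay, compared with 11.2%. Clk4 has 14 annotated transcripts, of which 7 retain an intron and 3 are decay targets, and Clk1 has 13, with 5 and 2. Srsf3 has 5, with 3 and 1, whereas the 3 transcripts of Srsf7 in this annotation include neither kind. The deposited reads are summed over transcripts, so a higher read count of such a gene need not be more coding mRNA. For 14 members an exon overlaps another gene of the opposite strand, and for 3 members one of the same strand, among them Hnrnpu and Hnrnpm. Longer transcripts had lower ratios in the whole table, with a Spearman rho of -0.18 across 13442 genes and -0.195 across the 55 members, given as a description of genes that share 2 libraries. Within roles rho was 0.035 across the 23 hnRNPs, -0.081 across the 14 SR proteins and coactivators and -0.154 across the 12 branch point factors.

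Other genes of RNA splicing and processing were taken from 7 lists with 167 genes, of which 162 were tested. Their median log2 fold change was -0.09, or 0.04 above the median gene, and at the lower fold 8 were higher (4.94%) and 32 lower (19.8%), again near the background. Under TMM the split was 15 higher and 20 lower. In the core of the spliceosome, the 15 Sm and LSm genes had a median of -0.0036, with 0 higher calls and 1 lower call (6.67%), Snrpd1 (-0.57). The 23 U1, U2 and tri-snRNP genes had a median of 0.09, with 2 higher (8.7%) and 3 lower calls (13%), among them Luc7l (0.78) and Prpf31 (-0.76). The 25 Prp19 and catalytic factors had a median of -0.0048, with 1 higher call (4%), Rbm22 at 0.71, and 4 lower calls (16%), among them Isy1 at -0.98. In the 19 exon junction and decay genes the median was -0.04, with 1 higher call (5.26%), Smg8 at 0.77, and 2 lower calls (10.5%), among them Upf3b at -0.60. In the 15 mRNA export genes the median was -0.08, with 2 higher and 2 lower calls (13.3% each), among them Nxt1 at 0.77 and Thoc1 at -0.98. The shares of all genes tested were 8.9% higher and 18.2% lower.

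The other lists had lower medians. The 48 tested regulators outside the SR and hnRNP families had a median of -0.30, or -0.16 relative to the median gene, with 14 lower calls (29.2%) and 1 higher call (2.08%) at the lower fold, against 18.2% and 8.9% of all genes tested. Rbm5, a regulator of apoptotic splice forms, had the largest fall among those called, from 1409 reads in the control to 299 in the HTL treatment library, a log2 fold change of -2.05 (-2.24 to -1.87). Rbm39, an SR-like protein that works with U2AF, was the one called higher, with 3011 and 4685 reads and a log2 fold change of 0.82 (0.76 to 0.89). The 17 genes of 3′ end processing had a median of -0.25, with 6 lower calls (35.3%) and 1 higher call (5.88%), against the same background. Cstf3, a subunit of the cleavage stimulation factor, had 830 and 216 reads, a log2 fold change of -1.75 (-1.98 to -1.54), and Cpsf4, a zinc finger subunit of the cleavage and polyadenylation factor, was the one called higher, with 873 and 1203 reads and a log2 fold change of 0.65 (0.52 to 0.78).

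**Figure D4:**
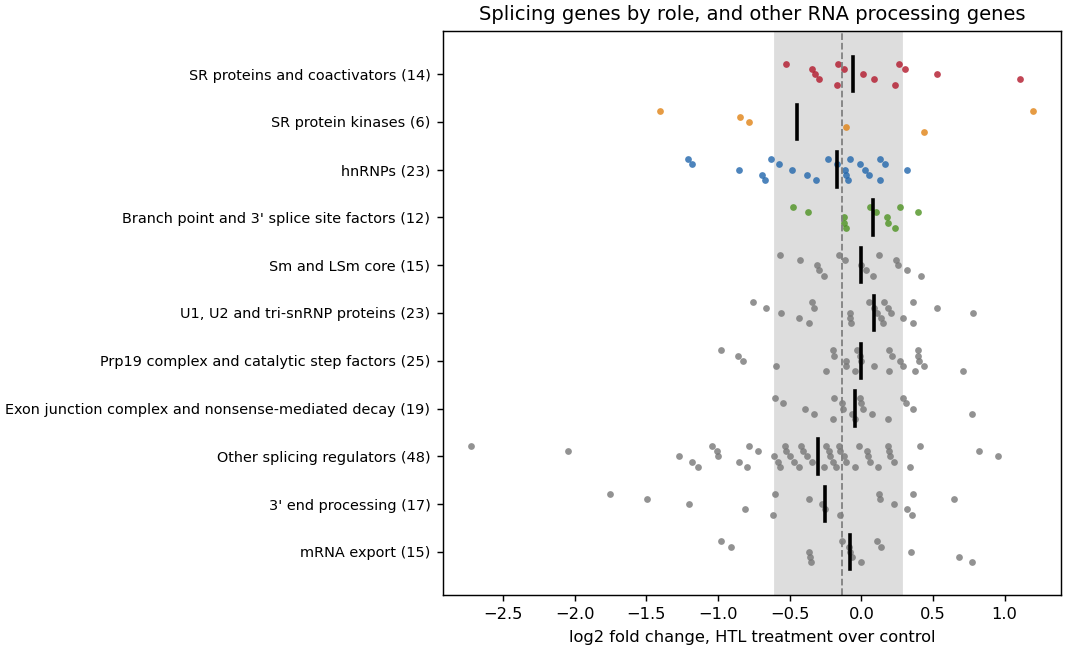
Log2 ratios of HTL treatment over control for the 4 role classes of the members (colours) and the 7 lists of other RNA processing genes (grey), 1 point per gene, with the number of genes tested in brackets and a black bar at each median. The dashed line is the median of all genes tested (-0.14) and the shaded band holds the middle of their distribution from -0.60 to 0.28 (25th to 75th percentile); the median of the SR protein kinases (-0.45) lies lowest and those of the branch point factors (0.08) and U1, U2 and tri-snRNP genes (0.09) highest.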

How the data were processed

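RNA-seq of NE4C cells gave 1 control and 1 HTL treatment library, grouped by sample titles. Per the study's methods and the file headers, filtered reads were aligned to mouse references, and the authors deposited, per gene, estimated counts from RSEM (not normalized) and FPKM (which the authors scaled for length of the transcripts and size of the library). The submitters' processing notes name mm9. The mapper, the versions and the use of strand are not given in the sources used here. The deposited table also holds 4 columns of the authors' own comparison (log2 ratio, direction, p-value, FDR), which were not used. RSEM splits reads between similar genes, and 13 members had fractional values.

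Estimated counts were rounded. The 13442 genes that reached 10 reads over both libraries were compared with the two-sided exact conditional binomial test against library totals (scipy 1.17.1) and Benjamini-Hochberg adjustment over all of them. Calls needed an adjusted p of at most 0.001 and a log2 ratio of at least 1 or 0.5 in size, and 0.5 read, scaled to library size, was added for the ratios. Intervals are 95% Clopper-Pearson intervals, and differences between members are conditional odds ratios. No molecular identifiers were used, so reads are not independent molecules, and floors and intervals cover counting error only. Reads or FPKM, with the log2 fold change and its interval, were given for members called at 2-fold and for the related pairs. The same was done for the 3 highest and 3 lowest log2 ratios and the 2 highest levels of each role. From each list of other genes the largest called rise and fall were named. The 5 tested promoter motifs and the mean transcript lengths, calibrated on 4109 genes of whole-number length, were added after values were seen, as were the sums of Clk2 and Hnrnpm with similar genes. The members and lists were chosen with earlier results of these data known.

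Alternatives were TMM (edgeR 4.0.16), median of ratios (DESeq2 1.42.0) and upper quartile scaling, minimums of 1 read in all or of 50 on average, 5 added reads, FPKM + 1, an adjusted p of 0.05, genes with the same best protein match summed, and edgeR's exact test with assumed variation. The binomial test was checked on counts with known changes.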

Additional observations from a re-analysis of the deposited data

How the results depend on the processing

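No paired analysis was possible because there was only 1 library of each condition. Of the members, 5 were called at 2-fold under every scaling, filter and added read count tried. Assumed variation between cultures moved the counts most: at a coefficient of 0.1, 7 members, 13 other RNA processing genes and 1357 of all genes passed the lower fold. At 0.2 the 2-fold and the lower fold each left 0 members and 120 of all genes, and at 0.4 each left 0 members and 6 of all genes. Of the other RNA processing genes, counted at the lower fold only, 1 was left at 0.2 and 0 at 0.4. By FPKM + 1, with no test, 852 genes differed 2-fold. Without Hnrnpu the log2 ratio of the read shares was -0.0819 for all members and -0.1875 for the hnRNPs, and without Srsf7 that of the SR proteins and coactivators was -0.0176 (both role values chosen after seeing the data). On the same scaling the median of all genes tested was -0.1375. Summing near copies took the difference between Hnrnpa1 and Hnrnpa2b1 to 0.0384, within counting error.

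Scaling turned the sign of small ratios. Under TMM and the median of ratios they became 0.0055 and 0.012 for Sf3b2, 0.0077 and 0.0141 for Sf3b5, 0.0089 and 0.0154 for Tra2a, 0.0261 and 0.0325 for Hnrnpf, 0.0232 and 0.0297 for Clk3, 0.0174 and 0.0239 for Hnrnpab, 0.0262 and 0.0327 for Sf3a3, 0.0525 and 0.059 for Hnrnpul1, 0.0374 and 0.0439 for Hnrnpa1, and 0.12 and 0.126 for Ptbp1. Under the upper quartile Hnrnpul1 (0.0159), Hnrnpa1 (0.0008) and Ptbp1 (0.0833) turned. The higher share of 2-fold calls over all genes rose from 26.1% to between 36.7% and 41.5%.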
